A study of Mus musculus with 12 samples.

Results

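Cells meet broken, mismatched or chemically altered DNA with a set of proteins that find the lesion, signal it and mend it. The genes described here encode 40 of these proteins, measured in microglia of adult mice and in aged microglia separated by the phosphorylation of the kinases ERK1/2. They were chosen by name from a list of 42 DNA damage sensing and repair genes, of which 40 had a row among the 770 genes of the panel, while *Ercc6* and *Xpc* were not analysed here. Of the 40, 12 belong to the sensing and checkpoint arm, 5 act at the ends of double-strand breaks and 10 in homologous recombination or the Fanconi anemia pathway. Another 7 act in base excision repair, PARP signaling or direct reversal, 2 in nucleotide excision repair, 1 in mismatch repair and 3 in the DNA synthesis and ligation that replication and repair share.

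In textbook outline, the kinases ATM and DNA-PKcs respond to double-strand breaks and ATR to single-stranded DNA at stalled replication forks. They phosphorylate the histone variant H2AX and the checkpoint kinases CHK1 and CHK2, which slow the cell cycle while repair proceeds. Breaks are joined directly by end joining in any phase of the cycle or copied from the sister chromatid by homologous recombination once DNA has replicated, and small base lesions, such as those from oxidation, are cut out by glycosylases. Microglia are long-lived, slowly renewing macrophages of the CNS, so both the replication-linked and the replication-independent routes are of interest in aged tissue.

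The Neuroinflammation panel of the NanoString nCounter, whose color-coded probes count RNA molecules without amplification, was run on each sample. A sample held the CNS of 2 mice, 1 male and 1 female. The mice were C57B6 animals with a YFP reporter driven by the *Cx3cr1* promoter, and the cells of all groups were taken up with CD11b beads, fixed, permeabilized and gated as YFP+, CD45 intermediate and Ly6G-. Aged microglia, from mice over 80 weeks, gave 4 samples with high ERK1/2 phosphorylation (P-ERK1/2 High, samples 2, 5, 7 and 8). Another 4 had low phosphorylation (P-ERK1/2 Low, samples 3, 6, 9 and 12). Adult mice of 12 to 20 weeks gave 3 samples that were not separated by phosphorylation (samples 1, 4 and 10). Adult sample 11 is labelled as excluded for poor quality and was left out unless stated. The study names tamoxifen treatment, more recent in the adult than in the aged mice. The study describes its Cre mice as hemizygous for a tamoxifen-inducible Cre at *Cx3cr1*. Legends of its later figures define wild type as *Ulk1* wt/wt with this Cre. The sources used here do not state whether these samples carried it, nor whether both aged groups came from the same mice. The labels number the samples without naming mice, so the samples were treated as independent pools, and p-values measure the spread between them. The *Cx3cr1* promoter is also active in other macrophages and in monocytes, and in these bulk samples fewer cells of a type and less RNA per cell cannot be told apart.

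The deposited values are counts multiplied by 1 factor per sample, and the division by that factor gave back the counts. Panel totals ran from 650965 to 1539936 counts in P-ERK1/2 High, from 123798 to 157209 in P-ERK1/2 Low and from 137980 to 326575 in the adult samples, so that depth and the P-ERK1/2 High group cannot be told apart. A count over 30 was treated as above background (the mean plus 2 SD of the 8 negative control probes was 20.6 to 41.9 counts). In normalized values, 30 counts were worth 21.4 to 38.0 in P-ERK1/2 High samples, 80.3 to 123 in P-ERK1/2 Low samples and 34.9 to 74.1 in adult samples. A gene that yields only background counts therefore has a higher value in P-ERK1/2 Low than in P-ERK1/2 High or adult samples. Of the 13 microglia marker genes, all were above background in all P-ERK1/2 High and adult samples, and 7 were in all and 3 in none of the P-ERK1/2 Low samples. Summed values of 6 endothelial markers were 622 to 1257 in P-ERK1/2 High samples, 207 to 312 in P-ERK1/2 Low samples and 286 to 413 in adult samples. Those of 6 astrocyte markers were 1412 to 2143, 581 to 833 and 467 to 677 in the same order. Those of 15 T and NK cell markers were 407 to 1283, 257 to 368 and 213 to 440. Of these, *Cd3e* alone had 112, 801, 365 and 150 in P-ERK1/2 High samples 2, 5, 7 and 8. No marker of the T and NK cell list passed 30 counts in any P-ERK1/2 Low or adult sample. In at least 1 P-ERK1/2 High sample 10 of the 15 did, and *Cd8a*, *Cd6*, *Klrb1*, *Klrk1* and *Gzma* did in none. Between the aged groups, limma called 4 of the 6 endothelial, 3 of the 6 astrocyte, 3 of the 15 T and NK cell, 3 of the 8 neuronal, 4 of the 13 microglia, 1 of the 10 oligodendrocyte, 1 of the 5 B cell and 1 of the 5 neutrophil and monocyte markers higher, beside 28.2% of the panel. A single marker each of microglia (*Tyrobp*, -1.05), neurons (*Nefl*, -1.03) and oligodendrocytes (*Cnp*, -1.07) was called lower, beside 9.61% of the panel. In P-ERK1/2 Low against adult samples no marker was called higher, beside 8.05% of the panel. Called lower, beside 2.73%, were *Tmem119* (-1.03), *Olfml3* (-1.56) and *Fcrls* (-2.31) of microglia, *Mobp* (-1.94) of oligodendrocytes and *Lcn2* (-1.54) of neutrophils and monocytes. The part of the markers in the differences below was not tested.

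At these depths, 28 of the 40 repair genes were above background in all 4 P-ERK1/2 High samples, 14 in all 3 adult samples and 10 in all 4 P-ERK1/2 Low samples. Conversely 23 of the 40 stayed at background in every P-ERK1/2 Low sample, 8 in every adult sample and 1, *Ddb2*, in every P-ERK1/2 High sample. The median repair gene had 81.5 to 192 counts in P-ERK1/2 High samples, 21.5 to 24 in P-ERK1/2 Low samples and 25 to 55.5 in adult samples. Together the 40 genes made up 0.795% to 0.874% of the panel's summed signal in P-ERK1/2 High samples, 0.895% to 0.987% in P-ERK1/2 Low samples and 0.807% to 0.925% in adult samples, a share that needs no scaling factor. This share includes background counts, at which 23 of the 40 genes stayed in P-ERK1/2 Low, so its order between the groups was not settled. Where no sample of the lower group passed 30 counts, the fold of a repair gene is therefore also given as a lower bound if it exceeds 1. The bound sets the higher group's mean log2 value against the mean log2 value that 30 counts have in each sample of the lower group. It holds for the deposited scaling only, and other scalings shift it. A stricter common floor, the highest of these values for all samples, is given with the scalings.

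**Figure D1:**
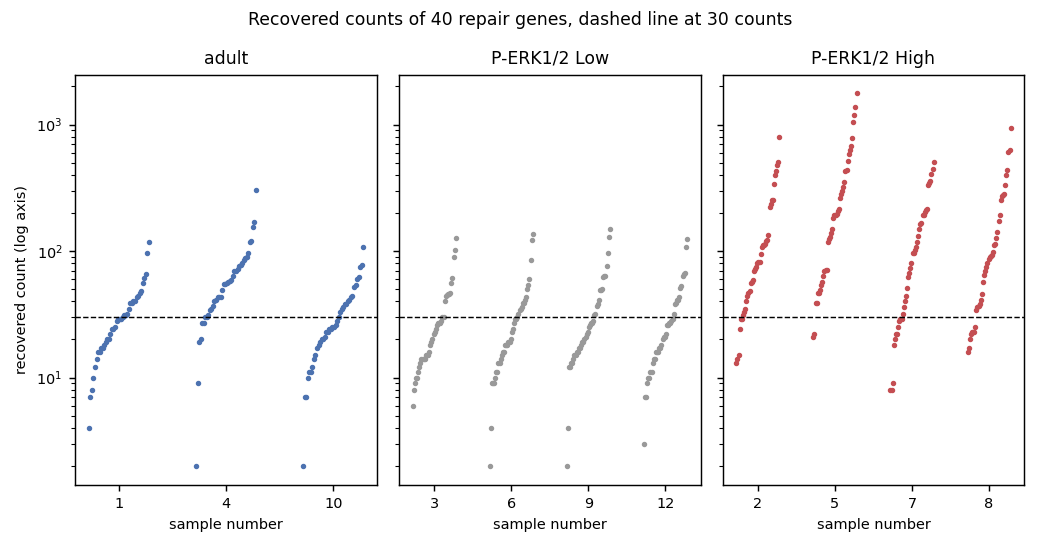
Recovered counts of the 40 repair genes in each kept sample of the 3 groups, on a log axis, each dot 1 gene sorted by count within its sample, with a dashed line at 30 counts. The P-ERK1/2 High samples have 29 to 38 genes above the line, the adult samples 16 to 32 and the P-ERK1/2 Low samples 11 to 15.

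Between the aged groups, with folds taken as P-ERK1/2 High over P-ERK1/2 Low throughout, the clearest differences lay in *Blm*, a helicase that unwinds recombination intermediates, *Brca1*, a tumor suppressor of homologous recombination, *Mpg*, a glycosylase for alkylated bases, and *Chek2*, the effector kinase downstream of ATM. These 4 were called higher in P-ERK1/2 High under all 6 scalings tried, by 3.41, 2.79, 2.34 and 2.07 on the log2 scale as deposited. *Mpg* alone of the 4 lost its call, at 0.72, when low values were set to a common floor. The upstream kinases *Atm* and *Atr*, the CHK1 kinase gene *Chek1*, the break-binding complex of *Mre11a*, *Nbn* and *Rad50*, the checkpoint clamp of *Rad9a*, *Rad1* and *Hus1*, and *Parp1* and *Parp2* did not pass the test. In all, limma (on log2(value + 1), p under 0.01 with a log2 fold change over 1 in size) called 12 of the 40 genes higher in P-ERK1/2 High samples, 30% of them, where 28.2% of the 770 panel genes were called higher. It called 3 lower, 7.5%, where 9.61% of the panel was. The share of repair genes called was thus near that of the panel in both directions, and the median log2 fold change was 0.23 over the 40 genes and 0.26 over the 770. The groups did not overlap for 18 of the 40 genes, or 45%, against 49.4% of the panel. Of these, 11 lay higher (27.5%, against 31.3%) and 7 lower (17.5%, against 18.1%). An adjusted p (Benjamini-Hochberg over the 770 genes, limma throughout) under 0.05 was reached by 21 of the 40, or 52.5%, against 52.2%.

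**Figure D2:**
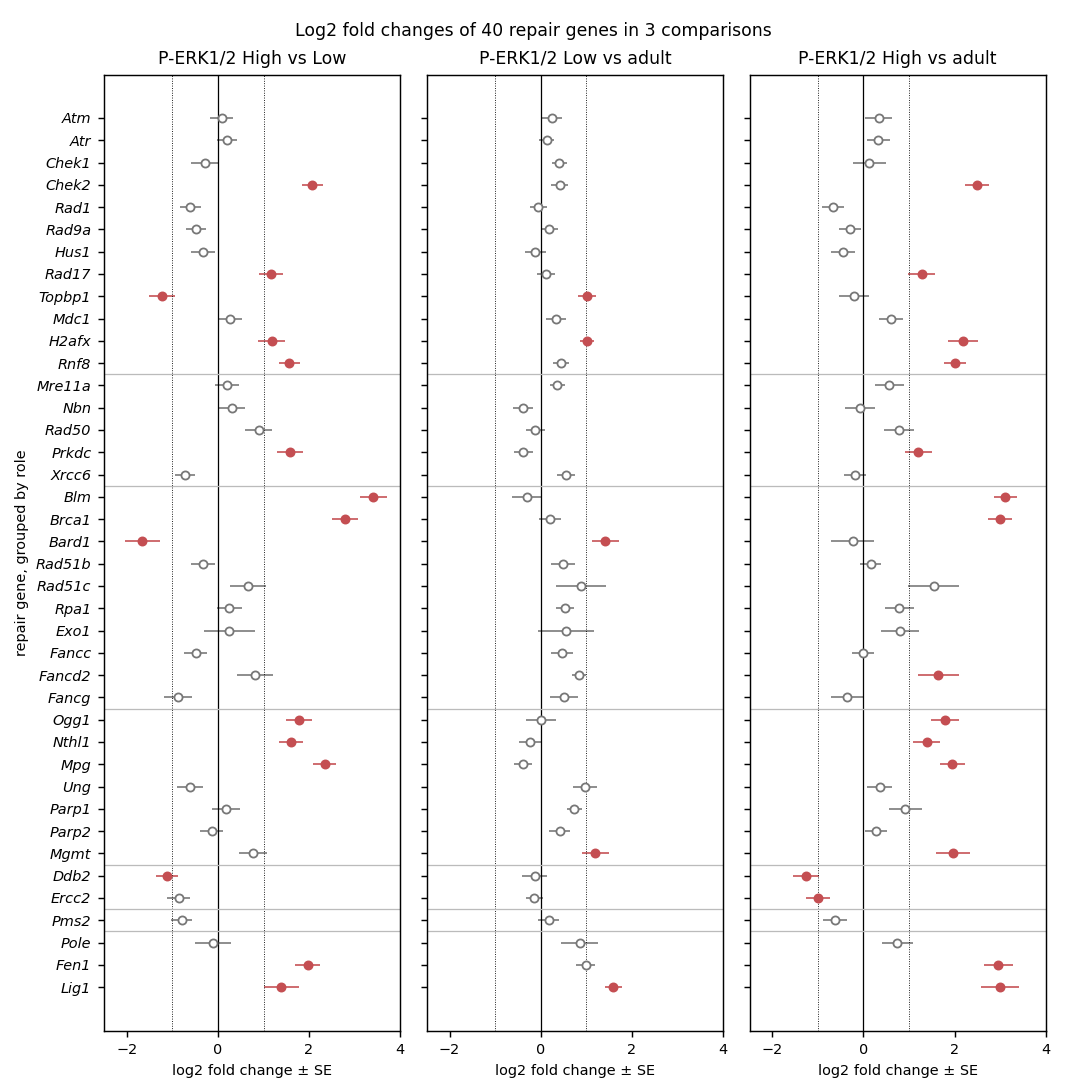
Log2 fold changes (limma on log2(normalized value + 1), bars are the SE) of the 40 repair genes in the 3 comparisons, with filled red points for called genes, dotted lines at a log2 fold change of 1 in either direction and grey lines between the roles. P-ERK1/2 High samples differ from both other groups in the same 12 called-higher genes, with *Blm*, *Brca1*, *Mpg* and *Chek2* farthest to the right in the left panel. The 2 comparisons share these samples.

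Among the sensing and checkpoint genes, 4 of 12 were called higher and 1 lower. *Chek2* had normalized values of 489, 306, 391 and 418 in P-ERK1/2 High samples 2, 5, 7 and 8, of 102, 84.1, 82.9 and 107 in P-ERK1/2 Low samples 3, 6, 9 and 12, and of 54.5, 83.8 and 74.1 in adult samples 1, 4 and 10 (values below keep this order). Every P-ERK1/2 High sample lay far above every other sample (log2 fold change 2.07, SE 0.22, adjusted p = 2.0e-05), and the P-ERK1/2 Low counts of 30, 24, 31 and 26 sit at the background line. *Chek1*, the kinase of the ATR branch, had 48.7, 50.8, 24.7 and 20.3 in P-ERK1/2 High samples, 44.05, 45.6, 37.5 and 36.9 in P-ERK1/2 Low and 36.3, 31.4 and 24.7 in adult samples. Its counts passed 30 in 2 P-ERK1/2 High samples and in none of the others, so its level was hardly measured and its change of -0.28 (SE 0.31) was not called. *Atm*, the master kinase of the double-strand break response, stood at 85.2, 137, 75.2 and 103 in P-ERK1/2 High samples, 91.5, 94.7, 74.9 and 111 in P-ERK1/2 Low and 65.8, 65.2 and 106 in adult samples. The 3 groups overlapped (log2 fold change 0.08, SE 0.24, adjusted p = 0.8), and no P-ERK1/2 Low count exceeded 28. *Atr*, the kinase of the replication stress response, was at 87.6, 147, 109 and 118 in P-ERK1/2 High samples, 91.5, 105, 85.6 and 115 in P-ERK1/2 Low and 90.8, 81.5 and 98.8 in adult samples, again with overlapping groups (log2 fold change 0.20, SE 0.23, adjusted p = 0.46).

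*H2afx* (H2ax in the current nomenclature), which encodes the histone variant that ATM, ATR and DNA-PKcs mark at breaks, was counted above background in every sample. Its values were 963, 1266, 502 and 1192 in P-ERK1/2 High samples, 430.3, 431, 342 and 439 in P-ERK1/2 Low and 220.1, 198 and 190.2 in adult samples. All P-ERK1/2 High samples lay above all P-ERK1/2 Low samples, which in turn lay above all adult samples, with P-ERK1/2 High sample 7 closest to the P-ERK1/2 Low group (log2 fold change 1.18, SE 0.29, adjusted p = 0.0055). The call was not made with median-of-ratios scaling (0.92), quantile normalization (0.54) or total counts (0.15). *Rnf8*, the ubiquitin ligase recruited to marked H2AX, was at 383 ± 74.8 in P-ERK1/2 High samples and 128 ± 22.1 in P-ERK1/2 Low (SD, n = 4 each; log2 fold change 1.57, SE 0.23, adjusted p = 2.1e-04). The scaffold gene *Mdc1*, which bridges marked H2AX and RNF8, was at 167 ± 37.02 and 139 ± 32.97 and was not called (log2 fold change 0.27, SE 0.25). *Rad17*, the loader of the checkpoint clamp, had 218 ± 70.7 against 94.03 ± 16.5 (log2 fold change 1.17, SE 0.27, adjusted p = 0.0032, at least 2.07-fold). Without P-ERK1/2 High sample 5, at 314, its change was 0.97 and was not called, nor was it with median-of-ratios scaling (0.91), quantile normalization (0.86), total counts (0.15) or the common floor described below (0.77). The 3 clamp subunits themselves gave -0.49 (*Rad9a*), -0.61 (*Rad1*) and -0.33 (*Hus1*), none called, with P-ERK1/2 High below P-ERK1/2 Low in all samples for *Rad1*. The P-ERK1/2 Low counts of *Rad1*, 19, 23, 19 and 13, were all at background.

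*Topbp1*, the activator of ATR at the clamp, was the single repair gene called lower in P-ERK1/2 High that was above background in all samples. It had 138, 84.3, 57.3 and 117 in P-ERK1/2 High samples, 207, 210.3, 203 and 271 in P-ERK1/2 Low and 109, 136 and 86.5 in adult samples. The P-ERK1/2 Low samples were high against both other groups, which overlapped with each other (between the aged groups, log2 fold change -1.23, SE 0.28, adjusted p = 0.0033). Without P-ERK1/2 High sample 7, the lowest, the change was -0.99 and was not called. Scaling to the 6 most stable housekeeping genes gave -0.46, not called, and scaling to the positive controls turned it to 0.75.

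At the ends of double-strand breaks, 1 of 5 genes was called. *Prkdc*, which encodes DNA-PKcs, the kinase that drives end joining, had 69.4, 141, 115 and 143 in P-ERK1/2 High samples, 47.4, 31.6, 42.8 and 28.7 in P-ERK1/2 Low and 45.4, 50.1 and 49.4 in adult samples. All P-ERK1/2 High samples lay above all others, but its P-ERK1/2 Low counts were 14, 9, 16 and 7, so the log2 fold change of 1.59 (SE 0.28, adjusted p = 7.1e-04) comes down to a bound of at least 1.11-fold. Its partner in the DNA-PK complex, *Xrcc6* (Ku70), had 50.1 ± 6.46 in P-ERK1/2 High samples and 84.2 ± 15.1 in P-ERK1/2 Low (SD, n = 4 each), lower without overlap. It was not called (log2 fold change -0.73, SE 0.22, adjusted p = 0.014), and its P-ERK1/2 Low counts of 23, 29, 25 and 22 were also at background. In the MRN complex, which tethers and trims break ends, *Mre11a* was measured above background in all samples and did not differ past the threshold (171 ± 61.5 against 142 ± 12.4, log2 fold change 0.21, SE 0.27, adjusted p = 0.52). *Rad50* had 0.89 (SE 0.29, adjusted p = 0.022, at least 1.14-fold), short of the fold limit, and *Nbn* 0.31 (SE 0.29), both at background in every P-ERK1/2 Low sample. Without P-ERK1/2 High sample 2 *Rad50* was called at 1.12, and with total counts it gave -0.13, not called.

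Homologous recombination held the 2 largest changes. *Blm* had 581, 417, 573 and 557 in P-ERK1/2 High samples, 27.1, 45.6, 61.5 and 73.8 in P-ERK1/2 Low and 56.7, 74.5 and 51.9 in adult samples. The 4 P-ERK1/2 High samples lay in a narrow band with sample 5 lowest. The P-ERK1/2 Low counts were 8, 13, 23 and 18 against 477, 583, 510 and 440 in P-ERK1/2 High samples, so that the change was at least 5.20-fold (log2 fold change 3.41, SE 0.30, adjusted p = 7.4e-06). For *Brca1* the values were 306, 449.6, 240.3 and 359.8 in P-ERK1/2 High samples, 47.4, 31.6, 45.5 and 69.7 in P-ERK1/2 Low and 38.6, 40.8 and 42.00 in adult samples, with no overlap (log2 fold change 2.79, SE 0.28, adjusted p = 1.4e-05, at least 3.26-fold). *Bard1*, the obligate partner of BRCA1 in its ubiquitin ligase, ran the other way in normalized values, at 37.7, 15.01, 8.98 and 27.9 in P-ERK1/2 High samples, 81.3, 66.6, 53.5 and 57.4 in P-ERK1/2 Low and 18.1, 39.6 and 17.3 in adult samples. Its counts, 31, 21, 8 and 22 in P-ERK1/2 High samples and 24, 19, 20 and 14 in P-ERK1/2 Low, hardly left background in either group. The call (log2 fold change -1.66, SE 0.38, adjusted p = 0.0033) thus carries no measured fold. With the negative-control background subtracted the change was -2.003 (SE 0.72), not called. Of the other 7 genes none was called. *Rpa1*, the single-strand binding protein gene, was the only one of these above background in all P-ERK1/2 Low samples (536 ± 217 against 432 ± 75.4, log2 fold change 0.25, SE 0.28, adjusted p = 0.46). The Fanconi anemia gene *Fancd2* was at background in all P-ERK1/2 Low samples and in P-ERK1/2 High sample 7, with 98.6, 130.1 and 95.02 in the other P-ERK1/2 High samples (log2 fold change 0.81, SE 0.40, adjusted p = 0.11), and without sample 7 it was called at 1.28. The changes of *Rad51b*, *Rad51c*, *Exo1*, *Fancc* and *Fancg* lay between -0.88 and 0.66, and all 5 stayed at background in every P-ERK1/2 Low sample. *Fancg* was called lower with median-of-ratios scaling (-1.12), quantile normalization (-1.15) and total counts (-1.87), and gave 1.07 with the positive controls, not called. It was also called lower without P-ERK1/2 High sample 2 (-1.13) or P-ERK1/2 Low sample 9 (-1.03).

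In base excision repair the 3 glycosylase genes *Mpg*, *Ogg1* and *Nthl1* were called higher, and the fourth, *Ung*, which removes uracil, was not (-0.62, SE 0.28, adjusted p = 0.083). *Mpg* had 136, 229, 227 and 245 in P-ERK1/2 High samples, 33.9, 49.1, 32.1 and 45.1 in P-ERK1/2 Low and 45.4, 50.1 and 61.8 in adult samples. All P-ERK1/2 High samples lay above all others, and its P-ERK1/2 Low counts of 10, 14, 12 and 11 leave at least 2.01-fold (log2 fold change 2.34, SE 0.26, adjusted p = 2.2e-05). *Ogg1*, the glycosylase for oxidized guanine, was at 131, 202, 218 and 159.6 in P-ERK1/2 High samples, 47.4, 35.1, 45.5 and 82.04 in P-ERK1/2 Low and 72.6, 36.1 and 46.9 in adult samples, without overlap (log2 fold change 1.78, SE 0.29, adjusted p = 3.7e-04, at least 1.72-fold). *Nthl1*, for oxidized pyrimidines, had 167 ± 47.8 in P-ERK1/2 High samples and 53.9 ± 13.3 in P-ERK1/2 Low (SD, n = 4 each, log2 fold change 1.61, SE 0.26, adjusted p = 4.3e-04, at least 1.61-fold), with its highest value in P-ERK1/2 High sample 7. *Parp1*, the sensor of single-strand breaks, was above background throughout at 285, 557, 184 and 346 in P-ERK1/2 High samples, 302, 298, 259 and 263 in P-ERK1/2 Low and 138, 182 and 185 in adult samples. P-ERK1/2 High sample 5 was high and sample 7 lowest, the groups overlapped and the change was 0.18 (SE 0.30, adjusted p = 0.63). *Parp2* had -0.13 (SE 0.25). *Mgmt*, which removes alkyl groups directly from guanine, was at 277 ± 94.8 and 158 ± 41.9, a difference short of the call (log2 fold change 0.77, SE 0.31, adjusted p = 0.055) that was called at 1.04 without P-ERK1/2 High sample 7.

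None of the 3 genes of nucleotide excision and mismatch repair was called higher. *Ddb2*, the sensor of ultraviolet lesions and a known p53 target, had counts of 13, 22, 18 and 17 in P-ERK1/2 High samples, 10, 16, 13 and 10 in P-ERK1/2 Low and 28, 27 and 18 in adult samples, never above 30. Its normalized values of 15.8, 15.7, 20.2 and 21.5 in P-ERK1/2 High samples and 33.9, 56.1, 34.8 and 41.02 in P-ERK1/2 Low did not overlap, and limma called it lower (-1.12). With background counts in both groups, these values carry no measured fold. *Ercc2*, the XPD helicase of TFIIH, had 74.2 ± 17.9 against 135 ± 30.4 (SD, n = 4 each) with no overlap. It stayed short of the fold limit (log2 fold change -0.86, SE 0.26, adjusted p = 0.014). *Ercc2* was called lower with median-of-ratios scaling (-1.11), quantile normalization (-1.14) and total counts (-1.87). The 6 most stable housekeeping genes gave -0.099 and the positive controls 1.11, neither called. The mismatch repair gene *Pms2* had 32.1 ± 4.14 against 57.1 ± 11.3 (log2 fold change -0.80, SE 0.23, adjusted p = 0.011), with no P-ERK1/2 Low count above 30.

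Of the 3 replication-linked genes, 2 were called higher. *Fen1*, the nuclease that trims Okazaki fragment flaps and also serves base excision repair, had 525, 991, 459 and 773 in P-ERK1/2 High samples, 159, 137, 169 and 209 in P-ERK1/2 Low and 97.6, 64.05 and 93.9 in adult samples, above background in all 11 samples. The 3 groups stood in order without overlap (between the aged groups, log2 fold change 1.97, SE 0.28, adjusted p = 1.5e-04). *Lig1*, the ligase that seals those fragments, was at 611, 753, 216 and 792 in P-ERK1/2 High samples and 189.7, 189, 166 and 275 in P-ERK1/2 Low. P-ERK1/2 High sample 7 lay among the P-ERK1/2 Low samples while the other 3 were far above them, so that the groups overlapped although the gene was called (log2 fold change 1.39, SE 0.38, adjusted p = 0.0091). The call was lost without P-ERK1/2 High sample 2, 5 or 8 or without P-ERK1/2 Low sample 9, with values of 1.20 to 1.32. It was also lost with median-of-ratios scaling (1.14), quantile normalization (0.90), total counts (0.37) and the common floor (1.39). *Pole*, a leading-strand polymerase gene, was not called (-0.12, SE 0.40).

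**Figure D3:**
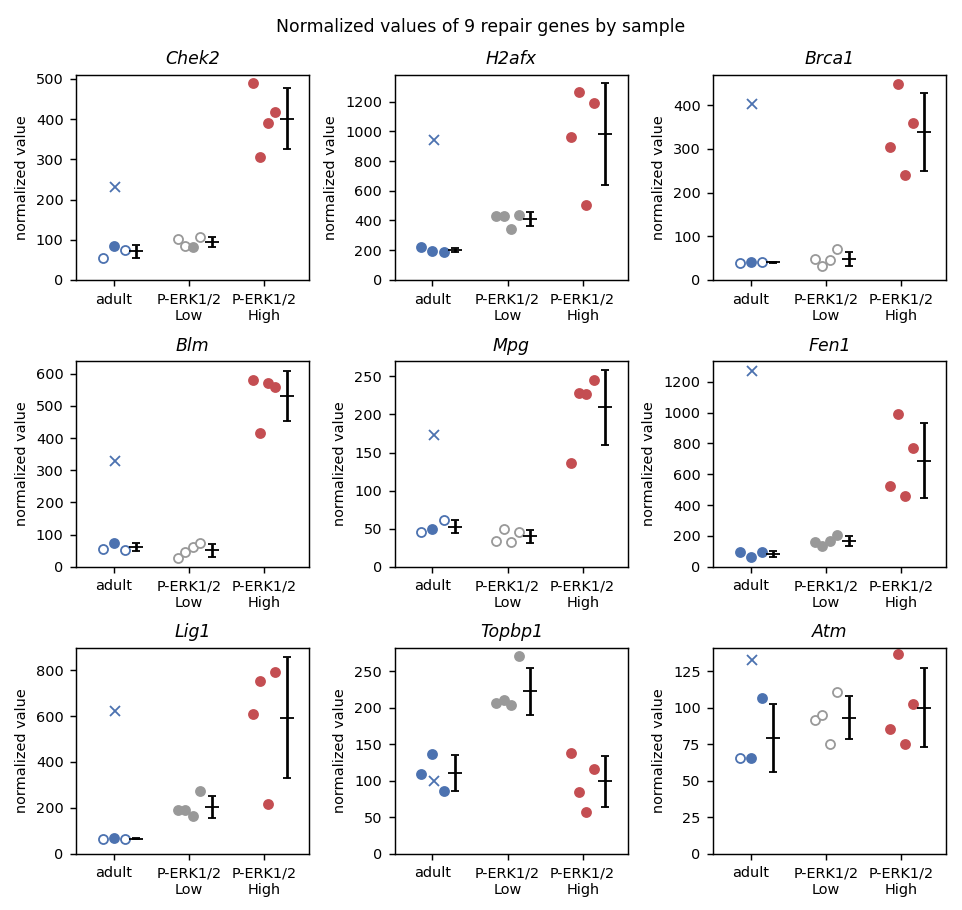
Normalized values of 9 repair genes in each kept sample of the 3 groups, with filled circles above and open circles at or below 30 counts. Black marks give the mean ± SD of the group, and a cross the excluded adult sample 11, which is in no mean. *Chek2*, *Brca1*, *Blm* and *Mpg* separate the P-ERK1/2 High samples from all kept samples of both other groups, *H2afx* and *Fen1* step up from adult samples over P-ERK1/2 Low, and *Topbp1* is highest in P-ERK1/2 Low. *Atm* overlaps between all groups.

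How many repair genes were called, and in which direction, depended on the scaling. Between the aged groups, the median log2 fold change over the panel was 0.26 as deposited, 0.0025 with median-of-ratios scaling, -0.10 after quantile normalization, -0.76 with total-count scaling, 1.02 with the 6 most stable housekeeping genes and 2.21 with the positive controls alone. The repair genes moved with it. As deposited 12 were called higher and 3 lower, with median-of-ratios scaling 9 and 6, and after quantile normalization 9 and 7. Total counts gave 4 and 15, the 6 stable housekeeping genes 17 and 0, and the positive controls 35 and 0. Of the 770 panel genes, 217 were called higher and 74 lower as deposited, 177 and 121 with median-of-ratios scaling and 146 and 142 after quantile normalization. Total counts gave 59 and 311 panel genes, the 6 housekeeping genes 361 and 4, and the positive controls 655 and 0. Total counts ended the calls of *Fen1* (0.95), *Ogg1* (0.77), *Nthl1* (0.59), *Prkdc* (0.57) and *Rnf8* (0.54), beside those of *H2afx*, *Rad17* and *Lig1*. Those called higher each time were *Chek2* (1.05 to 4.05 over the 6 scalings), *Blm* (2.39 to 5.37), *Brca1* (1.78 to 4.76) and *Mpg* (1.33 to 4.30), or 10% of the 40 genes, where 7.66% of the panel was. No repair gene was called lower each time, and 28 of the 40 changed sign between scalings. The 10 genes *Chek1*, *Rad1*, *Rad9a*, *Hus1*, *Xrcc6*, *Rad51b*, *Fancc*, *Ung*, *Parp2* and *Pms2* were called higher under some and lower under other scalings, so their direction was not settled. *Atm*, which is not among these 10, gave -0.94 with total counts, where the median gene gave -0.76, and 2.05 with the positive controls, where the median gene gave 2.21. With values at or below a common floor of 123, the highest normalized value of 30 counts in any P-ERK1/2 Low sample, set to that floor, the genes called higher were *Chek2*, *H2afx*, *Rnf8*, *Blm*, *Brca1* and *Fen1*, and none was called lower. With the mean of the negative controls subtracted, 15 were called higher, with *Nbn*, *Rad50* and *Fancd2* added, and only *Topbp1* lower, or 40% of the 40 genes, where 45.3% of the panel was called. The common floor left 15% of the 40 and 20.3% of the panel called.

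**Figure D4:**
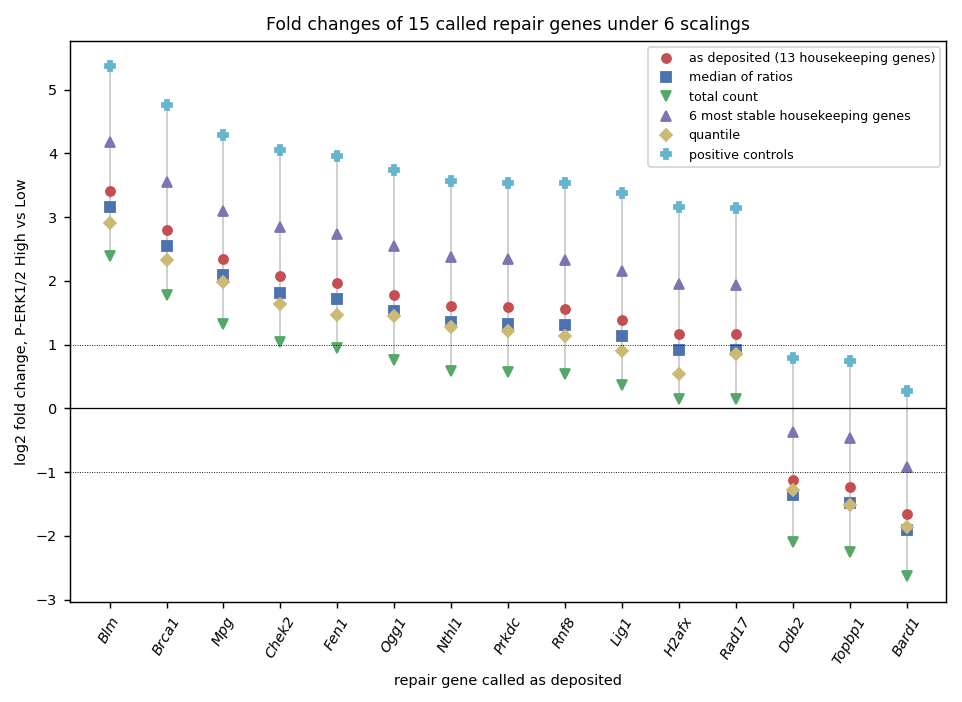
Log2 fold changes, P-ERK1/2 High over P-ERK1/2 Low, of the 15 repair genes called as deposited, under 6 scalings of the same counts, with dotted lines at a log2 fold change of 1 in either direction. *Blm*, *Brca1*, *Mpg* and *Chek2* stay above 1 under each scaling, while *Ddb2*, *Topbp1* and *Bard1* lie above 0 with the positive controls.

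For 31 of the 40 genes the RefSeq table (GRCm38.p6) gave a promoter window. Its 250 bases before the annotated transcript start were searched on both strands for CCAAT, the core of the CCAAT box, for CCGGAAG, a core of ETS factor sites, and for TTTNNCGC, a pattern of E2F factor sites. These factor families are known from promoters of growth and replication genes. CCAAT was found in 7 of the 10 windows of genes called higher in P-ERK1/2 High, in 8 of the 21 other repair genes, in 30.9% of the panel's 606 windows and in 34.5% of all 27025 windows. TTTNNCGC was found in 7 of the 31 windows (22.6%), against 6.27% of the panel and 4.39% of all windows, and stood in 2 of the 10 windows of genes called higher and 5 of the 21 others. CCGGAAG stood in 5 of the 31 (16.1%), against 8.09% and 7.05%. The promoters of *Blm*, *Brca1* and *Mpg*, which were called higher under each scaling, are shown 5′ to 3′ up to the base before the outermost annotated start of the gene, with CCAAT and its reverse complement in capitals. The window of *Blm* belongs to a transcript that starts inside the gene, so only the 100 bases of it before the outermost start are shown. The sequences lie on the minus strand at chr7:80535149-80535248 (*Blm*) and chr11:101551956-101552155 (*Brca1*) and on the plus strand at chr11:32226305-32226504 (*Mpg*).
Blm: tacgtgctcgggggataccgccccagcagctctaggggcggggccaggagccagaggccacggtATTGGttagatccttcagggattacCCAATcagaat
Brca1: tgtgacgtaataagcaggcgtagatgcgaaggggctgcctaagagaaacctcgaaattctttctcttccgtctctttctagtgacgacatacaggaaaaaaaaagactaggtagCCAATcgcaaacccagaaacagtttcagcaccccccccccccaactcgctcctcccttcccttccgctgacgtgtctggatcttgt
Mpg: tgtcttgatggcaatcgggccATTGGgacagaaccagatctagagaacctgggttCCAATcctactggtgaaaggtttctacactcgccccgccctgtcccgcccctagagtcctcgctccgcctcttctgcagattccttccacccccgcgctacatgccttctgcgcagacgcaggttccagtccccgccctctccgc
*Blm* and *Mpg* each hold the letters on both strands, and *Brca1* holds them once. *Chek2*, also called under each scaling, has 2 CCAAT matches and 1 TTTNNCGC match in its window, and its sequence is not shown. A match of letters is a description of the sequence and was tied to no binding here.

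Between P-ERK1/2 Low and adult microglia, which asks what differs in the aged cells with low phosphorylation, 5 repair genes were called higher and 0 lower, and no repair gene that was lower in P-ERK1/2 Low reached an unadjusted p under 0.05 with limma. The 5, *Lig1*, *Bard1*, *Mgmt*, *Topbp1* and *H2afx*, were 12.5% of the 40, where 8.05% of the panel was called higher and 2.73% lower. The median log2 fold change was 0.41 over the 40 genes and 0.10 over the panel, and 14 genes lay higher in P-ERK1/2 Low without overlap (35%, against 26.1% of the panel). None lay lower (0%, against 10.4%), so that 35% did not overlap either way, against 36.5%. Among the 14, *Chek1*, *Xrcc6*, *Bard1*, *Rad51b*, *Fancd2* and *Ung* stayed at background in every P-ERK1/2 Low sample. At background a value is higher in P-ERK1/2 Low, where 30 counts were worth 80.3 to 123, against 34.9 to 74.1 in adult samples. An adjusted p under 0.05 was reached by 9 of the 40, or 22.5%, against 26.1%.

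*Lig1* had the largest change, with 189.7, 189, 166 and 275 in P-ERK1/2 Low against 65.8, 67.5 and 64.2 in adult samples, with a wide gap between the groups (log2 fold change 1.60, SE 0.19, adjusted p = 0.0011). Its adult counts were 29, 58 and 26, at background in adult samples 1 and 10, and its call was lost with the common floor (0.70). *H2afx*, at 430.3, 431, 342 and 439 against 220.1, 198 and 190.2, separated the groups as cleanly but lay on the fold limit (log2 fold change 1.01, SE 0.15, adjusted p = 0.0028). Its call was lost without P-ERK1/2 Low sample 3, 6 or 12 or without adult sample 4 or 10, at 0.97 to 0.99. *Topbp1*, at 207, 210.3, 203 and 271 against 109, 136 and 86.5 (log2 fold change 1.02, SE 0.20, adjusted p = 0.008), gave 0.86 without adult sample 10 and 0.92 without P-ERK1/2 Low sample 12, neither called. *Mgmt* had 156, 126, 131 and 217 in P-ERK1/2 Low and 49.9, 104 and 56.8 in adult samples, with adult sample 4 near the P-ERK1/2 Low group (log2 fold change 1.20, SE 0.30, adjusted p = 0.021). It was not called without adult sample 1 (0.99) or 10 (1.09). *Bard1* values of 81.3, 66.6, 53.5 and 57.4 against 18.1, 39.6 and 17.3 did not overlap (log2 fold change 1.42, SE 0.30, adjusted p = 0.011), but counts of 24, 19, 20 and 14 and 8, 34 and 7 left all P-ERK1/2 Low samples at background. Below the fold limit, *Fen1* (0.98), *Parp1* (0.74), *Ung* (0.97) and *Fancd2* (0.83) had an adjusted p under 0.05, the last pair at background in every P-ERK1/2 Low sample. The kinase genes did not pass, with 0.26 (SE 0.22) for *Atm*, 0.13 (SE 0.16) for *Atr*, 0.41 (SE 0.17) for *Chek1*, 0.42 (SE 0.19) for *Chek2* and -0.38 (SE 0.20) for *Prkdc*, and *Brca1* had 0.20 (SE 0.25). With the positive controls alone, 0 repair genes were called higher and 5 lower, where 8 and 228 panel genes were, so no call of this comparison held under all 6 scalings. Among the 6 scalings, *Topbp1* and *H2afx* were called only with the deposited one, and gave 0.90 and 0.89 with median-of-ratios scaling, 0.96 and 0.95 with the 6 housekeeping genes, 0.94 and 0.87 after quantile normalization, 0.63 and 0.62 with total counts and 0.21 and 0.20 with the positive controls. *Mgmt* was also lost with total counts (0.82). Over the scalings, the panel median ran from -0.69 to 0.10. After background subtraction *Topbp1*, *H2afx*, *Fen1* and *Lig1* were called higher and *Nbn* and *Mpg* lower in P-ERK1/2 Low, and *Bard1* (2.10) and *Mgmt* (1.55) lost their calls. The values of *Lig1* stayed between 0.78 and 1.60 and those of *Mgmt* between 0.39 and 1.20 over the scalings.

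Between P-ERK1/2 High and adult microglia 14 repair genes were called higher and 2 lower, 35% against 29.2% of the panel and 5% against 7.66%. This comparison shares its samples with both others. The 12 genes called higher against P-ERK1/2 Low were all called here too, where the panel share called in both comparisons was not counted. *Mgmt* (log2 fold change 1.96, SE 0.37, adjusted p = 0.0017) and *Fancd2* (log2 fold change 1.64, SE 0.45, adjusted p = 0.013, at least 1.36-fold) joined them. *Fancd2* lost its call without P-ERK1/2 High sample 2, 5 or 8 or adult sample 1 or 4, at 1.39 to 1.61. The largest changes were those of *Blm* (3.11, SE 0.25), *Brca1* (3.00, SE 0.27), *Lig1* (2.99, SE 0.42), *Fen1* (2.95, SE 0.32), *Chek2* (2.49, SE 0.27) and *H2afx* (2.19, SE 0.33), with adjusted p-values (limma) from 2.5e-05 to 4.0e-04. *Chek2*, *Blm*, *Brca1*, *Fen1* and *Lig1* were called higher under all 6 scalings, 12.5% of the 40 against 5.06% of the panel. *Rad17*, *Prkdc* and *Fancd2* lost their calls with median-of-ratios scaling (0.91, 0.83 and 1.27) and quantile normalization (0.90, 0.98 and 1.40). *Nthl1* lost its call after quantile normalization (0.99). Total counts ended the calls of these 4 genes and of *H2afx*, *Rnf8*, *Ogg1*, *Mpg* and *Mgmt*. With total counts 5 repair genes were called higher and 18 lower, and with the positive controls 26 and 0, where 40 and 362 and then 423 and 1 panel genes were, at panel medians of -1.04 and 1.504. An adjusted p under 0.05 was reached by 18 of the 40 genes, or 45%, against 48.2% of the panel. Called lower were *Ddb2*, at background in both groups, and *Ercc2*, with 91.3, 50.03, 83.1 and 72.2 in P-ERK1/2 High samples and 149.8, 139.7 and 148 in adult samples (log2 fold change -1.001, SE 0.27, adjusted p = 0.011). *Ercc2* lost its call without adult sample 1 or 10 or P-ERK1/2 High sample 5 or 8 (-0.83 to -0.9996) and turned to 0.16 with the positive controls. The median log2 fold change was 0.67 over the 40 genes and 0.35 over the panel, and 19 genes did not overlap (47.5%, against 50.3%).

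**Figure D5:**
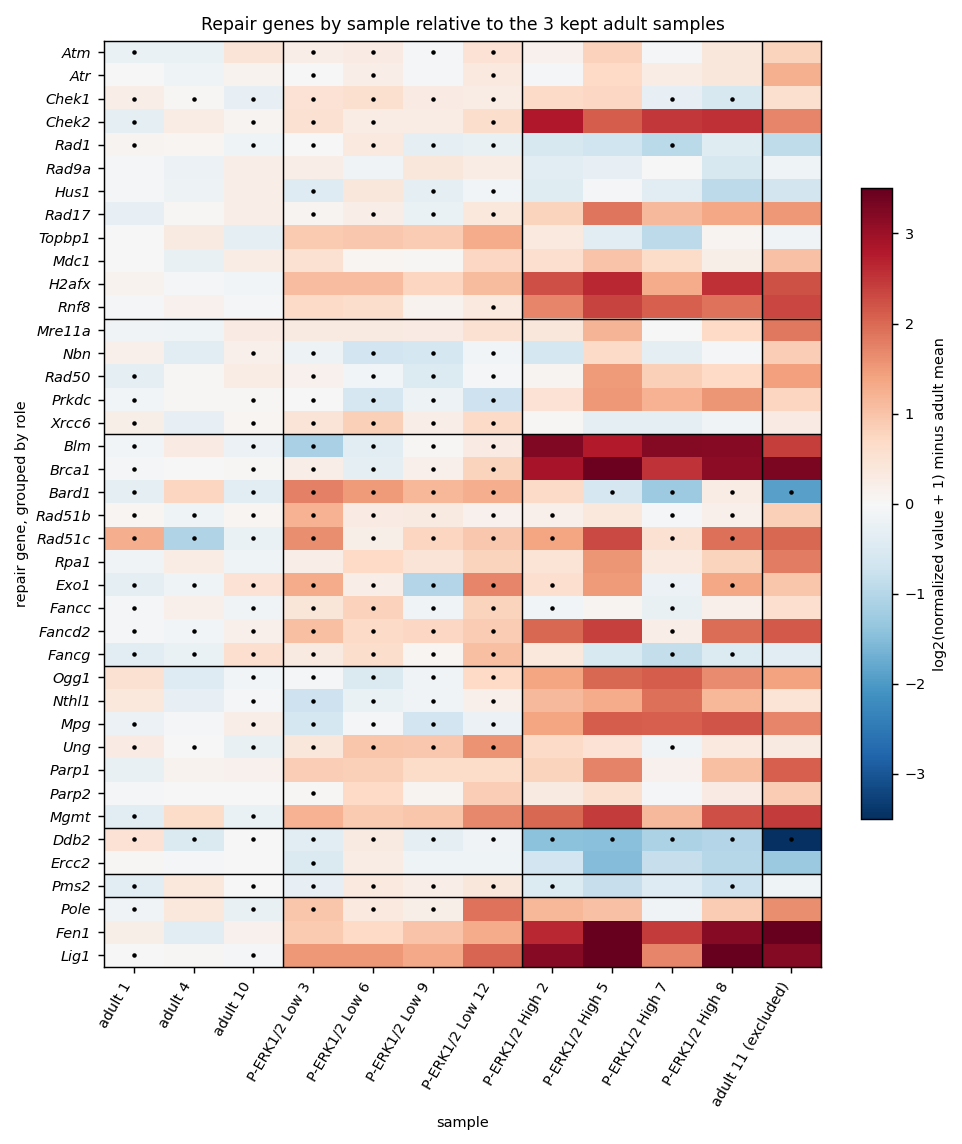
Normalized log2 values of the 40 repair genes in all 12 samples minus the mean of the 3 kept adult samples, with genes grouped by role between horizontal lines and groups between vertical lines. A black dot marks a count of 30 or less. Among the kept samples, the darkest red is in P-ERK1/2 High for *Blm*, *Brca1*, *Fen1*, *Lig1* and *Chek2*. P-ERK1/2 High sample 7 is paler than its group for *H2afx*, *Fancd2*, *Mgmt* and *Lig1*, and adult sample 11 resembles the P-ERK1/2 High columns for these genes. Colors stop at the ends of the bar, which *Ddb2* and *Fen1* in sample 11, *Fen1* in P-ERK1/2 High sample 5 and *Lig1* in P-ERK1/2 High sample 8 exceed.

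Across all 3 groups, the repair genes fell into a few patterns. *H2afx* and *Fen1* stepped up from adult samples to P-ERK1/2 Low and on to P-ERK1/2 High, with no overlap between neighbors, 2 of 40 genes (5%), where 5.71% of the panel did so. *H2afx*, *Mgmt* and *Lig1* were called higher in both aged groups against the adult samples. *Chek2*, *Rad17*, *Rnf8*, *Prkdc*, *Blm*, *Brca1*, *Ogg1*, *Nthl1* and *Mpg* were called higher in P-ERK1/2 High against both other groups while their P-ERK1/2 Low against adult changes, from -0.39 (*Mpg*) to 0.44 (*Rnf8*), were not called. Within P-ERK1/2 High, sample 7 had the lowest value for 22 of the 40 genes (55%, against 35.5% of the panel), among them *H2afx*, *Brca1*, *Fancd2*, *Parp1*, *Mgmt*, *Pole*, *Fen1* and *Lig1*. It was not lowest for *Chek2*, *Blm*, *Ogg1*, *Nthl1* or *Mpg*. The same sample had the highest summed values among P-ERK1/2 High samples of 5 neutrophil and monocyte markers (897, against 307 to 349 in the other 3), 6 endothelial markers (1257, against 622 to 751), 10 oligodendrocyte markers (686, against 402 to 447), 8 neuronal markers (548, against 302 to 459) and 5 B cell markers (371, against 174 to 242), whose part in its repair gene values was not tested. Sample 5, the most deeply counted, had the highest value for 21 (52.5%, against 47.3%) and the lowest for *Chek2*, *Blm*, *Ddb2*, *Ercc2* and *Pms2*.

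Adult sample 11, labelled as excluded for poor quality, stood apart from the kept adult samples. It had 1464449 panel counts, a geometric mean of its positive controls of 286 where the other samples had 954 to 1460, and 16 genes listed at 1. Its value lay above all 3 kept adult samples for 31 of the 40 repair genes (77.5%, against 58.6% of the panel), among them all 12 that were called higher in P-ERK1/2 High, with 232 for *Chek2*, 404 for *Brca1*, 329 for *Blm*, 945 for *H2afx* and 1272 for *Fen1*. These values lie above all P-ERK1/2 Low samples too. With sample 11 among the adult samples, *Chek2*, *Blm*, *Ogg1*, *Nthl1* and *Mpg* were the 5 repair genes called between P-ERK1/2 High and adult, where 49 panel genes were. *Topbp1* and *Bard1* were the 2 called between P-ERK1/2 Low and adult, where 34 of the 770 panel genes were. *Brca1* then gave 2.18, *Lig1* 2.18, *Fen1* 1.98 and *H2afx* 1.63 for P-ERK1/2 High over adult, none called. For P-ERK1/2 Low over adult *Lig1* gave 0.79, *Mgmt* 0.59 and *H2afx* 0.46, none called.

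Other panel genes of the same biology were read from 3 lists. Of the panel, 28.2% was called higher and 9.61% lower between the aged groups, and 8.05% and 2.73% in P-ERK1/2 Low against adult samples. Of 9 further repair and replication stress genes, only *Hmgb1*, a chromatin protein, was called between the aged groups (1.31, SE 0.35), and only *Pcna*, the sliding clamp of replication, between P-ERK1/2 Low and adult (1.15, SE 0.15). In the list of 12 p53 genes, P-ERK1/2 High was called higher than P-ERK1/2 Low for *Tnfrsf10b* (2.00), a death receptor, *Mdm2* (1.68), the ligase that degrades p53, and *Fdxr* (1.26). The P-ERK1/2 Low counts of *Fdxr* were 6, 6, 7 and 8, all at background, and its P-ERK1/2 High values of 37.7, 85.8, 47.2 and 62.1 lay within or below what 30 counts are worth in P-ERK1/2 Low, so it has no measured fold. P-ERK1/2 High was called lower for *Bbc3* (-1.97), the gene of the death effector PUMA, whose counts were at or below 27 in both groups. *Trp53* itself had 136, 95.1, 98.8 and 132 in P-ERK1/2 High samples, 227, 182, 222 and 271 in P-ERK1/2 Low and 218, 189 and 178 in adult samples, lower in P-ERK1/2 High without overlap. Its change against P-ERK1/2 Low stayed short of the fold limit (log2 fold change -0.96, SE 0.23, adjusted p = 0.0038), and *Cdkn1a*, the p21 gene, was not called either (0.32, SE 0.25). *Gadd45a* was called lower in P-ERK1/2 Low than in adult samples (-1.80, SE 0.21).

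Of 17 proliferation genes, 8 were called higher and 0 lower between the aged groups, and 9 higher and 0 lower in P-ERK1/2 Low against adult samples, where 28.2% and 8.05% of the panel were called higher. Their summed value was 1996 to 2431 in adult samples, 3954 to 5222 in P-ERK1/2 Low samples and 4657 to 14299 in P-ERK1/2 High, with the lowest P-ERK1/2 High value in sample 7, and it was 17708 in sample 11. *Mcm6*, a helicase subunit that loads at replication origins, had 1249, 1733, 489.6 and 1482 in P-ERK1/2 High samples, 383, 386, 393 and 468 in P-ERK1/2 Low and 113, 196 and 131 in adult samples, in that order without overlap. *Cdc25a*, the phosphatase that checkpoint kinases turn over, was at 506, 634, 456 and 578 in P-ERK1/2 High samples, 122, 102, 88.3 and 90.2 in P-ERK1/2 Low and 74.9, 78.02 and 64.2 in adult samples (between the aged groups, log2 fold change 2.42, SE 0.22, adjusted p = 7.4e-06). The part of these genes in the differences of the repair genes was not tested.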

How the data were processed

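RNA of 12 samples was counted on the nCounter Neuroinflammation panel. The authors used nSolver for normalization, and the deposited signal of each gene equals a whole count times 1 factor per sample (99.8% of values within 0.1 of a whole number), so counts could be read back. The deposited table also holds 8 negative and 6 positive control probes as raw counts. Columns were matched to samples by title. The signal was tested as log2(value + 1) with limma 3.58.1 in R 4.3.3, each comparison on its 2 groups, without batch terms, with Benjamini-Hochberg adjustment over 770 genes. A gene was called at p under 0.01 where its log2 fold change also passed 1 in size, the study's thresholds. Its change is given on the log2(value + 1) scale, which understates changes of low genes. Adult sample 11 was left out as labelled, so 11 samples were kept.

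The repair genes, the other gene lists and the cell type markers were chosen with earlier results of these data known. Genes given with every sample's value were, per comparison, the called genes with non-overlapping groups and the largest change, up to 6 higher and 6 lower. *Atm*, *Atr*, *Chek1*, *Parp1*, *Prkdc* and *H2afx* were given in any case. Others are given by role, and genes of the other lists were named after their values were seen. Alternatives were other scalings of the counts (total counts, median of ratios, quantiles, the 6 most stable of the 13 housekeeping genes, positive controls), pseudocounts of 0.1 and 20, a filter on a mean value of at least 50, a common floor, background subtraction, all 4 adult samples, a spread shared by 3 groups, thresholds on adjusted p, and leaving out each sample. The limma steps were tested on simulated data. Of the 770 panel symbols, 763 matched the RefSeq gene table directly and 7 through a synonym. Promoter windows come from RefSeq, build GRCm38.p6. The number of counts behind each value limits its precision, least so in the deeply counted samples.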

Additional observations from a re-analysis of the deposited data

Results flagged for a closer look

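In 7 of the 80 groups of 4 samples that the 40 genes form in the aged samples, 1 sample stood off from the other 3 past Dixon's limit at the 95% level, where chance gives about 1 group in 20. In P-ERK1/2 Low these were *Topbp1* in sample 12 (270.8), *H2afx* in sample 9 (342), *Mre11a* in sample 12 (160.0) and *Rad51b* in sample 3 (61.0). The first 3 genes were above background there and *Rad51b* was not. In P-ERK1/2 High they were *Blm* in sample 5 (417), *Nthl1* in sample 7 (238) and *Mpg* in sample 2 (136). The low *Blm* and *Mpg* values still lay above all P-ERK1/2 Low and kept adult samples, and these 3 genes kept their call when that sample was left out.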

How the results depend on the processing

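Of the 15 genes called between the aged groups, *Bard1* (0.27), *Topbp1* (0.75) and *Ddb2* (0.80) turned in sign, all with the positive controls. Of those called between P-ERK1/2 High and adult, *Prkdc* (-0.19), *Rad17* (-0.12) and *Nthl1* (-0.018) turned with total counts and *Ercc2* (0.16) with the positive controls. Between the aged groups 28 of all 40 genes changed sign over the scalings. Between the aged groups, the median log2 fold change of the 40 genes moved to -0.79 with total counts, 0.98 with the 6 stable housekeeping genes, 2.18 with the positive controls and 0.60 after background subtraction. The common floor left 6 repair genes and 156 panel genes called and 11 repair and 275 panel genes without overlap, and the positive controls gave 35, 655, 37 and 672. Between P-ERK1/2 Low and adult, 1 repair gene was called with a pseudocount of 20 (60 panel genes), 3 with median-of-ratios scaling (78), 2 with total counts (83; 9 repair and 305 panel genes without overlap, median 0.030), 3 with the 6 housekeeping genes (79) and 1 with the common floor (45; 7 and 224 without overlap, median 0). The positive controls called 236 panel genes (median -0.39), background subtraction 132, and an adjusted p with no fold limit 9 repair and 201 panel genes. With all 4 adult samples 2 repair and 34 panel genes were called, 3 and 115 did not overlap and the median was 0.19. Between P-ERK1/2 High and adult the median was 0.30 with median-of-ratios scaling, -0.73 with total counts, 1.38 with the 6 housekeeping genes, 0.21 after quantile normalization, 0.039 with the common floor (7 repair and 147 panel genes called), 1.84 with the positive controls (26 repair and 424 panel genes called, 29 and 461 without overlap) and 1.09 after background subtraction. All 4 adult samples gave 5 repair and 49 panel genes, and 4 and 59 without overlap. The positive controls and background subtraction were added after the data were seen, and the cause of these shifts was not tested.

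Leaving out each sample in turn, the genes called were 13 to 16 of 40 and 235 to 310 of 770 between the aged groups (18 to 22 without overlap, median 0.01 to 0.39), 3 to 7 and 75 to 95 between P-ERK1/2 Low and adult (14 to 19, 0.29 to 0.46), and 14 to 20 and 225 to 303 between P-ERK1/2 High and adult (20 to 28, 0.51 to 0.76). The count tests planned as alternatives were not run. No paired analysis was possible because the samples carry numbers that are not shared between groups. Depth limits the P-ERK1/2 Low group most, where 23 of the 40 genes were at background in all samples.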
